A study of Mus musculus with 10 samples.

Results

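Striatal medium spiny neuron genes were followed in brain RNA of Slc20a2-HO mice as the 9 rows, of 54532 genes in the count table, that carry the names Drd1, Drd2, Adora2a, Gpr6, Adcy5, Pde10a, Ppp1r1b, Rgs9 and Rasgrp2. All 9 were above the low-count filter in both comparisons made here. Every mouse was homozygous for the Slc20a2 tm1a(EUCOMM)Wtsi allele, which disrupts a sodium-dependent phosphate transporter, and no wild-type mouse was included. From the age of 1.5 months, 6 mice were injected intraperitoneally with FTY720, a modulator of sphingosine-1-phosphate receptors, at 0.5 mg/kg in DMSO 3 times per week for 12 weeks, and 4 placebo mice were given DMSO alone. The mice were perfused and RNA was taken from part of each brain, with 1 library per mouse. The mouse names hold a letter, F for FTY720 and P for placebo, and then a digit, 1 or 3, whose meaning the labels do not state. Digit 1 was carried by F1-622, F1-624, F1-918 and P1-623, and digit 3 by F3-609, F3-612, F3-908, P3-612, P3-904 and P3-907.

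Medium spiny neurons are the GABAergic projection neurons of the striatum and come in a direct and an indirect pathway class. Direct pathway cells carry the dopamine D1 receptor (Drd1), which stimulates adenylyl cyclase, and indirect pathway cells carry the D2 receptor (Drd2), which inhibits it, together with an adenosine receptor (Adora2a), which stimulates it. Both classes share the machinery downstream of these receptors, from adenylyl cyclase 5 (Adcy5) to DARPP-32 (Ppp1r1b), an inhibitor of protein phosphatase 1 when phosphorylated by protein kinase A. In RNA from bulk tissue, fewer cells of a type and less RNA per cell cannot be told apart.

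Counts summed to between 14772745 and 18303981 per library, and mitochondrial transcripts took 4.83% to 6.48% of them. Slc20a2 was detected in all 10 libraries with 89 to 154 counts (6.26 to 9.34 CPM) in digit 1 and 194 to 294 counts (11.6 to 16.9 CPM) in digit 3, without overlap, and without a wild-type library these values are no check of the genotype. The 2 digits stood apart in markers of brain regions. The 9 cerebellar granule cell markers summed to 221 to 241 CPM (counts scaled to a common library size by TMM) in digit 1 libraries and to 1309 to 1455 CPM in digit 3 libraries, and Gabra6, a GABA-A receptor subunit that defines these cells, reached 0.059 to 0.24 CPM in digit 1 and 130 to 172 CPM in digit 3. All 7 hindbrain markers were also higher in digit 3, where they summed to 58.2 to 88.2 CPM against 1.07 to 1.99 CPM in digit 1. The digit and this difference in tissue cannot be told apart, so each comparison between digits below is one of libraries poor and rich in cerebellar and hindbrain transcripts. The defining members Drd1, Drd2, Adora2a and Ppp1r1b were present in every library, and none of the 9 was at 0 anywhere.

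Promoter sequences of the annotated RefSeq genes (GRCm38.p6) were matched for 7 of the 9 members, and 3 are shown, 5′ to 3′ on the strand of the gene, because they belong to receptors of the direct class (Drd1) and the indirect class (Drd2, Gpr6). Each is a window of 300 bases around a transcript start, the one nearest to the gene start. No window was matched for Adora2a or Ppp1r1b. Capitals mark the letters GGGCGG (the GC box, either strand) in Drd1 and Drd2 and TGACGTCA (the cAMP response element) in Gpr6.
Drd1: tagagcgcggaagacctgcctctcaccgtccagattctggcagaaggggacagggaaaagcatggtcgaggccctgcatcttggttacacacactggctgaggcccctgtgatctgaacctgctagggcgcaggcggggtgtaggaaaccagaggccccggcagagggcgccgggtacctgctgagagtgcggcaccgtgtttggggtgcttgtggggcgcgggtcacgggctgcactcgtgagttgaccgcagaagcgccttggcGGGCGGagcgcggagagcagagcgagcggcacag
Drd2: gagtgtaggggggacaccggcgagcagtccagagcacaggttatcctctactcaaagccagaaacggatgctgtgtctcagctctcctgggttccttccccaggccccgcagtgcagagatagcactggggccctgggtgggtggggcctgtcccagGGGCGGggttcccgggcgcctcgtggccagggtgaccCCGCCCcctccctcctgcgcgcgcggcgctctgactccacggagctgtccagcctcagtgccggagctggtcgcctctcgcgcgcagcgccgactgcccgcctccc
Gpr6: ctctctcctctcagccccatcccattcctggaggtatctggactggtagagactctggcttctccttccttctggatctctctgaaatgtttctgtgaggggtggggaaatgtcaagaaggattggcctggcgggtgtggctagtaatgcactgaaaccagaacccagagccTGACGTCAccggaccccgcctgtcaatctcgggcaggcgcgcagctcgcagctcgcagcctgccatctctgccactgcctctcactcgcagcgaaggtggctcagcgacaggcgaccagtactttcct
The Drd1 window shown lies at chr13:54055609-54055908 on the minus strand and holds 23 CpG and 1 GC box. Another Drd1 window, not shown, lies at chr13:54054731-54055030 and holds 6 CpG and 1 GC box. The Drd2 window lies at chr9:49340153-49340452 on the plus strand and holds 23 CpG and 2 GC boxes, while that of Gpr6 at chr10:41072241-41072540 on the minus strand holds 13 CpG, 1 cAMP response element and no GC box. Among 32851 promoter windows of this length, 35.7% held GGGCGG and 1.79% held TGACGTCA on either strand, and the median window had 7 CpG. Such matches describe the letters alone. The genes themselves lie in GRCm38 at chr13:54051183-54055705 (Drd1), chr9:49340627-49408177 (Drd2), chr10:75316877-75334784 (Adora2a) and chr10:41069977-41072285 (Gpr6), with counts taken over exons.

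Set per length, the members spanned more than 1 order of magnitude. Ppp1r1b was highest with a median of 73.0 FPKM over the 10 libraries, followed by Adcy5 at 37.2 FPKM, Pde10a at 13.6, Drd2 at 13.4, Adora2a at 12.5, Rgs9 at 9.89, Drd1 at 8.48, Gpr6 at 5.49 and Rasgrp2 at 3.93 FPKM. Ppp1r1b exceeded Adcy5 and Adcy5 exceeded Pde10a in 10 of 10 libraries, but only the ranges of Adcy5 and Pde10a were separate. Pde10a exceeded Drd2 in 6 of 10 libraries, so that these neighbours were not ordered beyond their spread. Drd2 was above Adora2a in 8 libraries, Adora2a above Rgs9 in 9, Rgs9 above Drd1 in 7, Drd1 above Gpr6 in 10 and Gpr6 above Rasgrp2 in 8. This order depends on the deposited gene length, which was 12384 bases for Rasgrp2. Its median CPM of 49.1 was above those of Drd1 (30.9), Drd2 (34.4), Adora2a (38.8) and Gpr6 (9.93), and below those of the other members.

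**Figure D1:**
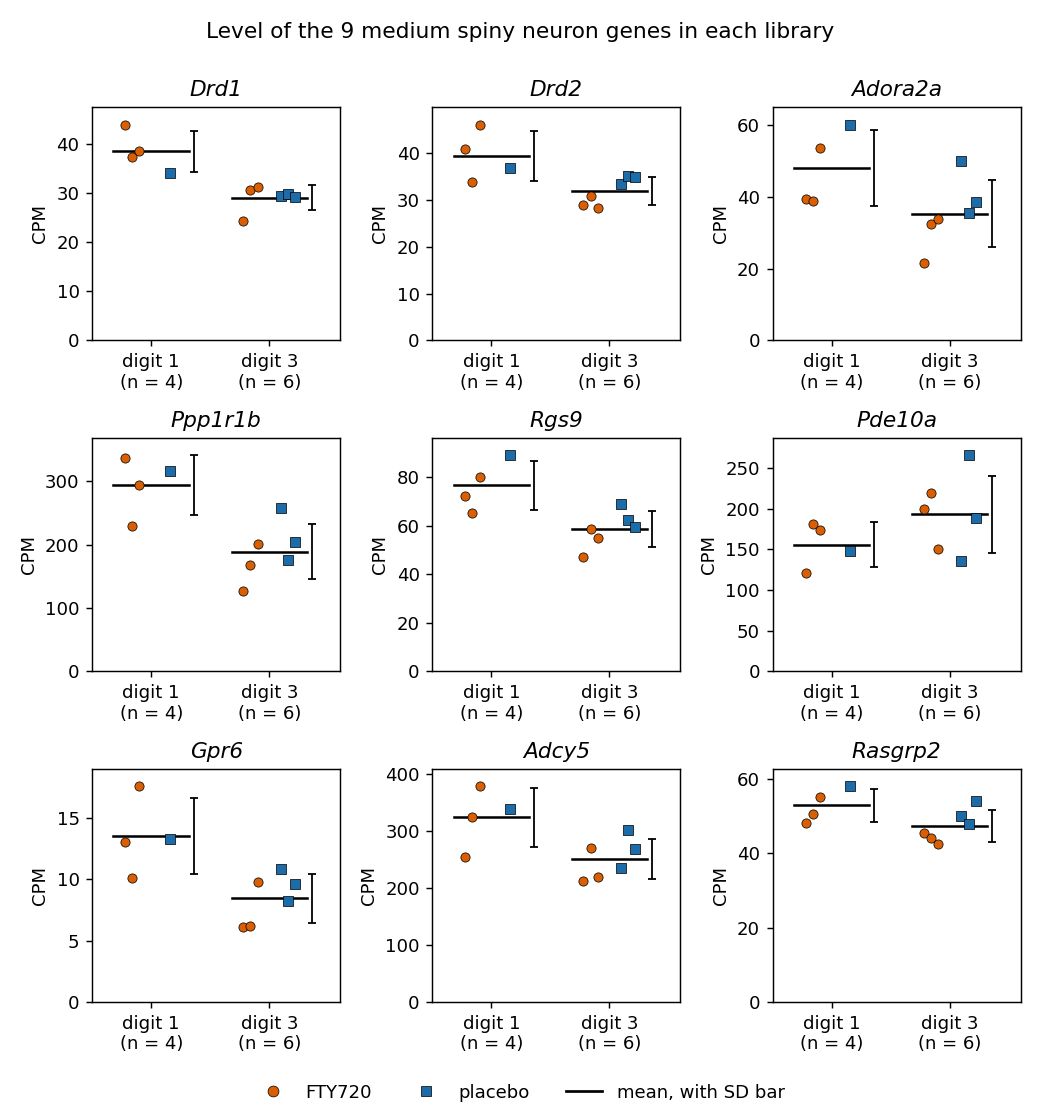
TMM-scaled CPM (y axis, from 0) of each of the 9 genes in the 4 digit 1 and 6 digit 3 libraries (x axis), with FTY720 mice as circles, placebo mice as squares, lines at the mean and bars of 1 SD. Drd1 is the gene whose digits do not overlap, at 34.1 to 43.9 CPM in digit 1 and 24.3 to 31.2 CPM in digit 3, and Pde10a is the gene with the higher mean in digit 3.

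The first comparison asked how the members differed between the libraries of the 2 digits, with treatment as a term, in 10 mice. In digit 3, 7 of the 9 members were lower after Benjamini-Hochberg adjustment over 18785 genes (threshold 0.05, quasi-likelihood test of edgeR), where 13.4% of all genes tested were lower, and none was higher, where 13.1% of all genes were. The log2 fold change was below 0 for 8 of the 9, compared with 50.3% of all genes, and the median was -0.41 against -0.0027 for all genes. The summed level of the 9 was 970.9 to 1136.9 CPM in digit 1 and 712.9 to 962.6 CPM in digit 3. The 7 that fell were the receptors Drd1, Drd2, Adora2a and Gpr6 with Adcy5, Ppp1r1b and Rgs9, and the other two were Rasgrp2 and Pde10a.

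Among the receptors, Drd1 was at 43.9, 37.2, 38.6 and 34.1 CPM in F1-622, F1-624, F1-918 and P1-623, and at 24.3 to 31.2 CPM with a median of 29.5 in the 6 digit 3 libraries. Every digit 3 library lay below every digit 1 library, which 6.18% of all genes also did, and the log2 fold change was -0.39 ± 0.11 (SE, n = 6 and 4, adjusted p = 0.0187). Drd2 was at 41.0, 33.8, 46.2 and 36.8 CPM in the same digit 1 libraries and at 28.3 to 35.1 CPM with a median of 32.2 in digit 3, so the groups overlapped at F1-624, and the log2 fold change was -0.34 ± 0.11 (SE, adjusted p = 0.0415). Adora2a was at 39.5, 38.8, 53.7 and 60.3 CPM in digit 1 and at 21.4 to 49.9 CPM with a median of 34.8 in digit 3. Its highest digit 3 library, P3-612, was above F1-622 and F1-624, and the log2 fold change was -0.57 ± 0.15 (SE, adjusted p = 0.0168). Gpr6, a constitutively active receptor of indirect pathway neurons that raises cAMP, had the lowest CPM of the members, at 13.1, 10.1, 17.6 and 13.3 CPM in digit 1 and 6.09 to 10.8 CPM with a median of 8.92 in digit 3, and it fell by 0.75 ± 0.19 on the log2 scale (SE, adjusted p = 0.0141).

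Of the enzymes that make and degrade cAMP, Adcy5 was lower and Pde10a was not. Adcy5 was at 254, 325, 378 and 337 CPM in digit 1 and at 212 to 301 CPM with a median of 251 in digit 3, overlapping at F1-622, with a log2 fold change of -0.41 ± 0.12 (SE, adjusted p = 0.0279). Pde10a, the striatal phosphodiesterase of cAMP and cGMP, was at 121, 181, 174 and 148 CPM in digit 1 and at 136 to 266 CPM with a median of 194 in digit 3. Its mean was higher in digit 3 and its log2 fold change of 0.31 ± 0.18 did not pass the test (SE, adjusted p = 0.230).

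Ppp1r1b was at 338, 229, 294 and 316 CPM in digit 1 and at 127 to 258 CPM with a median of 189 in digit 3. It fell by 0.72 ± 0.15 on the log2 scale (SE, adjusted p = 0.00571), with P3-612 above F1-624. Rgs9, which shortens G protein signals downstream of the D2 receptor, was at 72.3, 65.4, 80.0 and 89.1 CPM in digit 1 and at 47.1 to 68.8 CPM with a median of 59.2 in digit 3, and fell by 0.45 ± 0.096 (SE, adjusted p = 0.00543). Rasgrp2, a striatal exchange factor for Rap1, was at 48.1, 50.6, 55.0 and 58.1 CPM in digit 1 and at 42.5 to 54.2 CPM with a median of 46.6 in digit 3, and its log2 fold change was -0.21 ± 0.085 (SE, adjusted p = 0.0778).

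Within the leading digit of the mouse number, 6 or 9, which the labels do not explain either, the 8 members below 0 kept that direction in both sets of mice and Pde10a stayed above 0. The log2 CPM difference of Drd1 was -0.45 among mouse numbers starting with 6 (3 against 3) and -0.36 among those starting with 9 (3 against 1), that of Adora2a -0.47 and -0.57, and that of Ppp1r1b -0.72 and -0.60. Whether the digit effect differed between treatments could hardly be tested, because P1-623 is the 1 placebo mouse of digit 1 and its spread had to be assumed to be that of the other groups (interaction p from 0.140 to 0.885 for the members, adjusted p = 0.99985 for each). Without F3-609, 3 of the 9 members were lower, where 7.33% of all genes were lower, and these were Adora2a, Ppp1r1b and Rgs9. The Drd1 log2 fold change without it was -0.31 (adjusted p = 0.0560, range over the alternatives 0.00459 to 0.0560).

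The libraries also differed in how counts followed the base composition of genes. The GC slope of a library, its change in log2 level per 10 points of gene GC content relative to the mean library, was -0.021, 0.072, 0.21 and 0.26 in F1-622, F1-624, F1-918 and P1-623. It was 0.015, -0.048 and 0.049 in P3-612, P3-904 and P3-907, and -0.31, -0.13 and -0.095 in F3-609, F3-612 and F3-908. The FTY720 mice of digit 3 thus had the lowest slopes of the 10. Ppp1r1b, Adcy5, Adora2a, Gpr6 and Drd2 were GC-rich genes, at the 97.2, 94.6, 94.0, 83.1 and 78.6 percentile of GC content among genes tested, whereas Drd1 was at the 32.1 percentile.

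With GC and length trends taken out of each library, an alternative chosen after seeing the data, 6 of the 9 members were lower in digit 3 and 13.5% of all genes were lower. Drd1 was at -0.45 (adjusted p = 0.00459) and Rgs9 at -0.55 (adjusted p = 0.00166, range over the alternatives 0.000209 to 0.0451), while Ppp1r1b was at -0.36 (adjusted p = 0.0289, range 1.93e-09 to 0.0289). Rasgrp2, at -0.37 (adjusted p = 0.0230, range 0.0230 to 0.248), passed the threshold in this fit. Gpr6 moved to -0.44 (adjusted p = 0.0469, range 7.25e-05 to 0.0513), Adcy5 to -0.24 (adjusted p = 0.0274, range 0.00124 to 0.0849) and Pde10a to 0.087 (adjusted p = 0.555, range 0.0657 to 0.555). The calls of Drd2, at -0.10 (adjusted p = 0.523, range 0.0243 to 0.523), and of Adora2a, at -0.27 (adjusted p = 0.0703, range 5.36e-05 to 0.112), were lost. Drd2 was also no longer called in 7 of the other alternatives, among them the fit with no treatment term and the removal of any of 5 single mice other than F3-609. Adcy5 was no longer called with no treatment term, in FTY720 mice only and without F1-624, F1-918, F3-609, F3-908 or P1-623, which makes 7 of 21 alternatives, and Adora2a in 5 of 21, which were the removal of the trends, no treatment term, FTY720 mice only and the fits without F1-918 or P1-623.

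**Figure D2:**
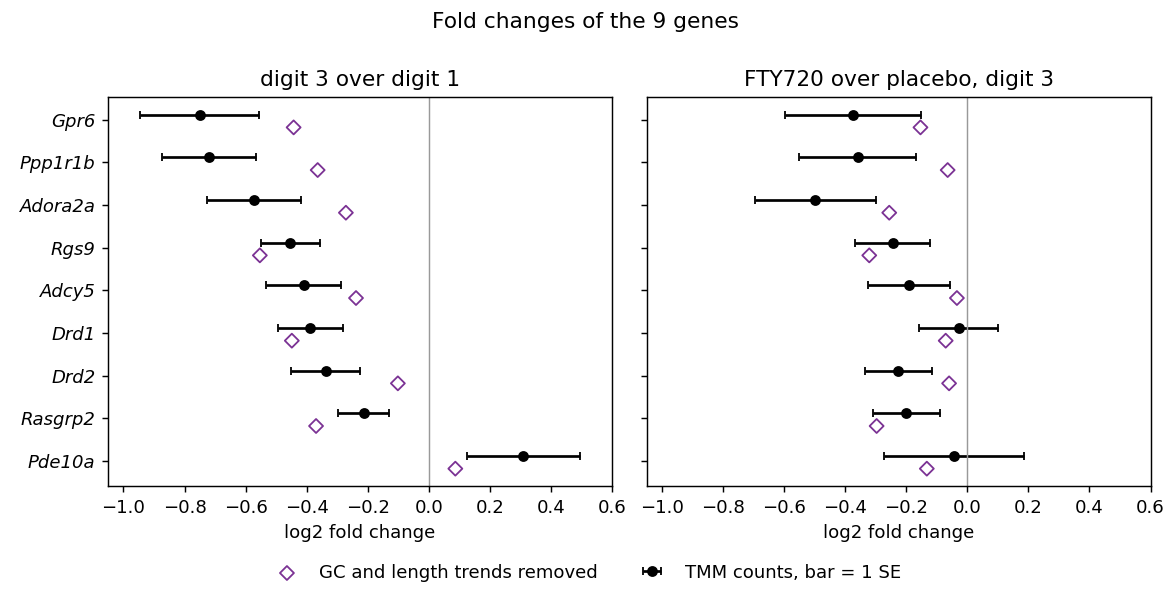
Log2 fold changes (x axis) of the 9 genes (y axis) for digit 3 over digit 1 (left) and for FTY720 over placebo within digit 3 (right), with filled points for TMM-scaled counts, bars of 1 SE, and open diamonds for the fit with GC and length trends removed. On the left 8 of the 9 points lie below 0, from Gpr6 at -0.75 to Pde10a at 0.31, and on the right Adora2a is lowest at -0.50 while Drd1 is at -0.03.

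The wider striatal lists were described in the same fit. Of 8 direct pathway genes, 3 were lower and 1 was higher in digit 3, and 5 were lower with GC and length trends taken out. Chrm4, the M4 muscarinic receptor, fell by 0.93 ± 0.17 on the log2 scale (SE, adjusted p = 0.00247), Pdyn, the precursor of dynorphin, fell by 0.69 ± 0.15 (adjusted p = 0.00571) and Isl1 fell by 0.45 ± 0.14 (adjusted p = 0.0339). Ebf1, a transcription factor of many tissues besides the striatum, rose by 1.98 ± 0.12, from 4.22 to 5.55 CPM in digit 1 to 15.0 to 21.9 CPM in digit 3. Of the 4 indirect pathway genes 3 were tested and 2 were lower, Sp9 by 1.07 ± 0.15 and Penk, the precursor of enkephalin, by 0.64 ± 0.16 (adjusted p = 0.0114), while Grik3, a kainate receptor subunit, was at -0.01.

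Of 25 other striatal genes, 15 were lower and 2 higher, with a median log2 fold change of -0.33, and 8 were lower without F1-918, without F3-609 or without P1-623, where 9.45%, 7.33% and 7.33% of all genes were lower. Itpka, which phosphorylates inositol trisphosphate, fell by 1.08 ± 0.13 and Hpca, the calcium sensor hippocalcin, by 0.75 ± 0.11, and both are also expressed in cortex and hippocampus. Rxrg, a retinoid X receptor, fell by 0.70 ± 0.10. The 2 that rose (1 without P1-623) were Cnr1, the cannabinoid CB1 receptor, by 0.67 ± 0.10, and Strip2, by 0.57 ± 0.15. Gnal, the G protein alpha subunit that couples Drd1 and Adora2a to Adcy5, was at 0.03 ± 0.11 (adjusted p = 0.850).

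The dopamine and cAMP list is made of pathway genes that are not limited to the striatum. Of its 50 genes tested, 14 were lower and 4 higher, with a median of -0.10. Gnb2, a G protein beta subunit, fell by 0.62 ± 0.12 and Prkar1b, a regulatory subunit of protein kinase A, by 0.54 ± 0.10, whereas Pde1c rose by 1.54 ± 0.19. Of 26 tested relatives of the members, 6 were lower and 2 higher. Ppp1r1a, the relative of Ppp1r1b, fell by 0.97 ± 0.16, and Gpr3 and Gpr12, the relatives of Gpr6, fell by 0.74 ± 0.16 and 0.44 ± 0.13. Pde5a rose by 1.69 ± 0.16.

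Other cell types moved in both directions between the digits. Of 12 markers of cortical excitatory neurons 9 were lower, their median was -0.49 and their sum was 1664 to 2039 CPM in digit 1 and 1107 to 1367 CPM in digit 3. Slc17a7, a vesicular glutamate transporter on this list, fell by 0.68 ± 0.11. Of the other forebrain lists, some had lower medians than the 9 members and others did not. The hypothalamic median was -1.11, with 5 of 9 markers lower and sums of 101 to 162 CPM in digit 1 and 20.6 to 82.4 CPM in digit 3. The olfactory bulb median was -0.79, with 2 of 5 lower, but its 6 genes summed to 93.8 to 151 CPM in digit 1 and 118 to 186 CPM in digit 3. The hippocampal median was -0.61, with 3 of 8 lower and 1 higher. The thalamic median was -0.16, with 2 of 9 lower and 1 higher, and sums of 391 to 487 CPM in digit 1 and 426 to 545 CPM in digit 3. The striatal interneuron median was 0.01, with 4 of 10 lower and 2 higher. Of the 8 midbrain dopamine markers tested none was lower and 3 were higher (1 without P1-623), while Th, which makes the dopamine precursor, was at -0.25 ± 0.15 (adjusted p = 0.213) and Slc6a3, the dopamine transporter, at 0.02 ± 0.12 (adjusted p = 0.922). Of 6 microglial markers 5 were lower (3 without P1-623). CPM are shares of a library, and the part of the added cerebellar and hindbrain transcripts in these values was not tested.

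**Figure D3:**
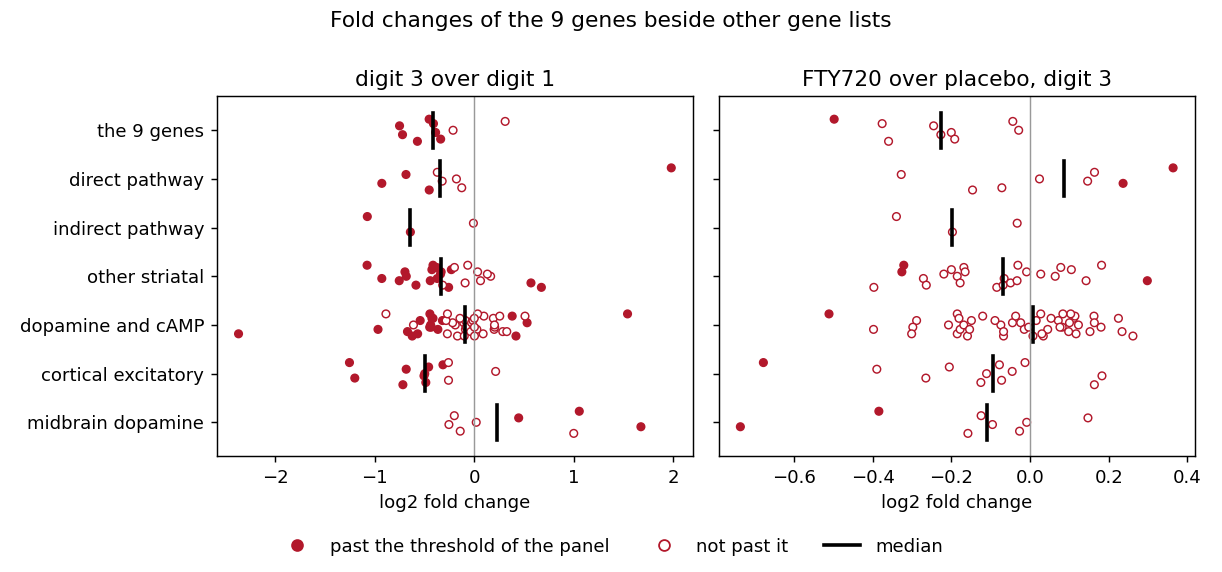
Log2 fold changes (x axis) of single genes in 7 gene lists (y axis) for digit 3 over digit 1 (left) and FTY720 over placebo within digit 3 (right), with lines at the list median. Filled points passed an adjusted p of 0.05 on the left and an unadjusted p of 0.05 on the right, where no gene passed after adjustment. The medians of the 9 genes, -0.41 and -0.23, stand beside -0.49 and -0.09 for cortical excitatory markers.

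The second comparison asked whether the members differed between FTY720 and placebo within digit 3, with 3 mice per group. No member passed an adjusted p of 0.05, and neither did any of the 17656 genes tested (0%, smallest adjusted p = 0.654), of which 1283 had an unadjusted p under 0.05. DESeq2's Wald test gave 2 genes higher and 3 lower after adjustment, and no member was among them. At an unadjusted p under 0.05, 1 of the 9 members was lower in FTY720, Adora2a, where 4.49% of all genes were lower, and none was higher, where 2.78% of all genes were. All 9 log2 fold changes were below 0, compared with 50.8% of all genes, and the median was -0.23 against -0.0049 for all genes.

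Adora2a was at 21.4, 32.6 and 33.9 CPM in F3-609, F3-612 and F3-908 and at 49.9, 35.7 and 38.7 CPM in P3-612, P3-904 and P3-907. All FTY720 libraries lay below all placebo libraries, and the log2 fold change was -0.50 ± 0.20 (SE, unadjusted p = 0.0337, adjusted p = 0.654). With the leading digit of the mouse number as a term in the same test, Adora2a was at -0.51 and no longer passed (unadjusted p = 0.0507). Drd2 was at 29.0, 30.9 and 28.3 CPM in FTY720 and at 33.4, 35.1 and 35.0 CPM in placebo, without overlap, and its log2 fold change was -0.23 ± 0.11 (unadjusted p = 0.0685). Drd1 was at 24.3, 30.7 and 31.2 CPM in FTY720 and at 29.4, 29.7 and 29.1 CPM in placebo. The placebo libraries lay within the range of the FTY720 libraries for Drd1, and the log2 fold change was -0.03 ± 0.13 (unadjusted p = 0.831).

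The groups also did not overlap for Rgs9, at 47.1, 58.8 and 54.7 CPM in FTY720 and 68.8, 62.6 and 59.6 CPM in placebo, with a log2 fold change of -0.24 ± 0.12 (unadjusted p = 0.0758). Rasgrp2 was at 45.4, 44.0 and 42.5 CPM in FTY720 and 50.0, 47.8 and 54.2 CPM in placebo, with a log2 fold change of -0.20 ± 0.11 (unadjusted p = 0.103). In all, 4 of the 9 members lay wholly lower in FTY720, where 6.15% of all genes did. Gpr6 was at 6.09 to 9.78 CPM in FTY720 and 8.23 to 10.8 CPM in placebo (-0.38 ± 0.22), Ppp1r1b at 127 to 202 and 176 to 258 CPM (-0.36 ± 0.19), Adcy5 at 212 to 271 and 235 to 301 CPM (-0.19 ± 0.13) and Pde10a at 150 to 220 and 136 to 266 CPM (-0.04 ± 0.23), all with overlapping groups and unadjusted p from 0.0943 to 0.853.

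The spread in these values lay partly in single mice. F3-609 had the lowest library value of the 3 FTY720 mice for Drd1, Adora2a, Gpr6, Adcy5, Ppp1r1b and Rgs9, and P3-612 had the highest placebo value for Adora2a, Gpr6, Ppp1r1b and Rgs9. Without F3-609 no member had an unadjusted p under 0.05, where 1.31% of all genes were lower. The Adora2a log2 fold change was then -0.32 (unadjusted p = 0.112), and that of Drd1 was 0.076. By the leading digit of the mouse number, the Adora2a log2 CPM difference was -0.92 for numbers starting with 6 (2 FTY720 mice against 1 placebo mouse) and -0.13 for those starting with 9 (1 against 2), and that of Pde10a was 0.63 and -0.57. Ppp1r1b (-0.82 and 0.089), Gpr6 (-0.81 and 0.13), Drd1 (-0.10 and 0.084) and Adcy5 (0.029 and -0.38) also took opposite signs in the 2 sets, whereas Drd2, Rgs9 and Rasgrp2, like Adora2a, were below 0 in both. With GC and length trends taken out, the median of the 9 was -0.13. Adora2a was then at -0.26 (unadjusted p = 0.0827), Drd1 at -0.07, Drd2 at -0.06, Ppp1r1b at -0.064, Adcy5 at -0.034, Gpr6 at -0.15, Pde10a at -0.13 and Rasgrp2 at -0.30, and Rgs9 at -0.32 (unadjusted p = 0.0283) was the 1 member past the threshold, where 3.3% of all genes were lower.

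Within digit 3, the log2 CPM of Adora2a and the GC slope of its library moved together over the 6 mice (Pearson r = 0.92, exact permutation p = 0.0125, and Spearman rho = 0.94, p = 0.0167). After adjustment over the 18 relations computed, these exact permutation p were 0.113 and 0.15, and without the 2 mice of the most distant slopes, F3-609 and P3-907, r was 0.93. The FTY720 mice held the 3 lowest slopes, so that treatment and slope cannot be told apart in these 6 mice. Adcy5, which is as GC-rich as Adora2a, had r = 0.51 (exact permutation p = 0.322, adjusted p = 0.477) and rho = 0.37 (p = 0.497, adjusted p = 0.639), and r without the 2 mice was -0.11. The other GC-rich members lay between, Ppp1r1b at r = 0.87 and rho = 0.89, Gpr6 at 0.81 and 0.71 and Drd2 at 0.74 and 0.66 (exact permutation p of r 0.0306, 0.0389 and 0.0833, adjusted p 0.125, 0.125 and 0.188), with r without the 2 mice at 0.81, 0.77 and 0.61. For Drd1, r was 0.68 (exact permutation p = 0.178, adjusted p = 0.291), rho was -0.09 (p = 0.919, adjusted p = 0.974) and r without the 2 mice was -0.86, so the pooled r rested on those mice. Pde10a, at the 96.4 percentile of gene length, moved with the slope of its library on gene length (r = 0.92, exact permutation p = 0.00417, adjusted p = 0.075, and rho = 1, p = 0.00278, adjusted p = 0.05), and r was 0.80 without the 2 mice farthest in that slope, P3-612 and P3-904. Rasgrp2, at the 95.9 percentile of length, had r = -0.38 with the same slope (exact permutation p = 0.444, adjusted p = 0.533) and rho = -0.14 (p = 0.803, adjusted p = 0.903), with r = -0.38 without those mice. Gene length was the value deposited with the counts, 12849 bases for Pde10a and 12384 for Rasgrp2, and lengths of single transcripts were not used. Rgs9, at the 44.1 percentile of GC content, had r = 0.85 with the GC slope (exact permutation p = 0.0403, adjusted p = 0.125) and rho = 0.77 (p = 0.103, adjusted p = 0.306), with r = 0.86 without F3-609 and P3-907.

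**Figure D4:**
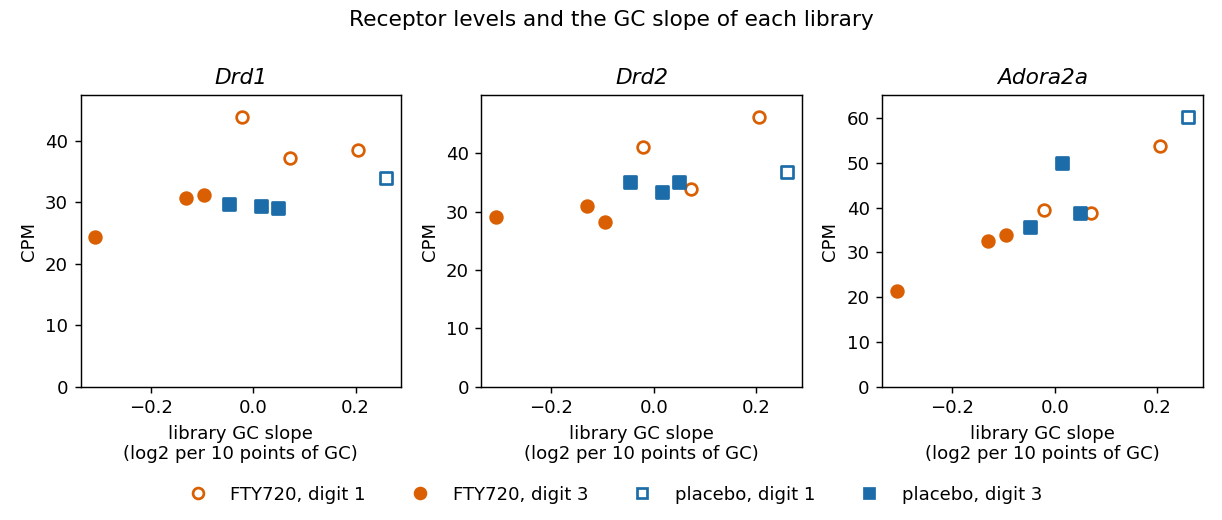
TMM-scaled CPM (y axis, from 0) of Drd1, Drd2 and Adora2a against the GC slope of each library (x axis, change in log2 level per 10 points of gene GC content) in 10 mice, with FTY720 as circles, placebo as squares, digit 1 open and digit 3 filled. Adora2a is lowest in F3-609, the library of the lowest slope (-0.31), and highest in P1-623, that of the highest slope (0.26), and the 3 filled circles lie left of the 3 filled squares in each panel.

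Other striatal lists were described in the same treatment comparison. Among the 8 direct pathway genes 2 were higher at an unadjusted p under 0.05, Ebf1 at 0.36 ± 0.14 and Sfxn1 at 0.24 ± 0.10, and the median was 0.09. None was higher with GC and length trends taken out, nor without F3-609, F3-612, P3-612 or P3-907 in turn, and 1 was without F3-908 or P3-904. None of the 3 indirect pathway genes passed (1 was lower without F3-908 or P3-904), and Penk was at -0.34 ± 0.18 (unadjusted p = 0.0959). Of 25 other striatal genes, Syndig1l at -0.32 ± 0.11 and Rxrg at -0.33 ± 0.14 were lower and Strip2 at 0.30 ± 0.12 was higher, with a median of -0.07. The count lower was 0 with GC and length trends taken out, 0 without F3-609 or P3-907 and 4 without P3-904, where 12.2% of all genes were lower, and the count higher was 0 without F3-609, F3-612, F3-908 or P3-907. Of 49 dopamine and cAMP genes only Gnas passed, at -0.51 ± 0.14 (unadjusted p = 0.00518), and the median was 0.01. In that list 2 genes were lower with the trends taken out (3.30% of all genes), 3 without F3-908 (6.52% of all genes), and 7 lower and 3 higher without P3-904, where 12.2% of all genes were lower and 9.52% higher, so these counts lay near the background. Of 25 relatives of the members Pde5a was higher, at 0.42 ± 0.17, and none was without F3-609, F3-612, P3-612 or P3-907, while 1 was lower without F3-908 or P3-904.

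Markers of other cells were examined in the same comparison, where none passed after adjustment. At an unadjusted p under 0.05, 4.49% of all genes were lower in FTY720 and 2.78% higher. Of 8 oligodendrocyte markers 4 were lower in FTY720, with sums of 5627 to 5833 CPM against 6528 to 7510 CPM, and of 6 endothelial markers 4 were higher, with sums of 193 to 257 CPM against 152 to 162 CPM, all at unadjusted p under 0.05. Of 6 microglial markers 2 were lower at that threshold, all 6 were below 0 and the sums were 227 to 259 CPM in FTY720 and 268 to 310 CPM in placebo. Of 9 hypothalamic markers 1 was lower, 8 were below 0 and the median was -0.54. Of 8 midbrain dopamine markers 2 were lower and 7 below 0, and of 12 cortical excitatory markers 1 was lower and 10 below 0. Of 7 hindbrain markers 2 were lower, of 9 thalamic markers 1 was lower, and of 9 cerebellar granule cell markers 2 were higher. No marker passed in the striatal interneuron, hippocampal, olfactory bulb, Purkinje cell, astrocyte or choroid plexus lists. The summed level of the 9 members was 712.9 to 861.4 CPM in FTY720 and 871.2 to 962.6 CPM in placebo. The part of these cell types in the values of the members was not tested.

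Drd1 was then set against Drd2 and Adora2a within each library, as the log2 ratio of counts, which does not depend on the scaling of libraries. Between the digits none of the 3 ratios, compared without a treatment term, differed beyond its spread. The log2 ratio of Drd1 to Drd2 was -0.14 ± 0.17 in digit 3 and -0.03 ± 0.19 in digit 1 (SD, n = 6 and 4, two-sided exact permutation p = 0.352), that of Drd1 to Adora2a was -0.24 ± 0.32 and -0.30 ± 0.43 (exact permutation p = 0.810), and that of Drd2 to Adora2a was -0.11 ± 0.33 and -0.27 ± 0.32 (exact permutation p = 0.443). The differences of the means were -0.10, 0.06 and 0.16. With 1 mouse left out, that of Drd1 to Drd2 ranged from -0.18 (without F1-918) to -0.046 (without F1-624), with -0.058 without F1-622 and -0.16 without F3-908. That of Drd2 to Adora2a ranged from 0.013 (without P1-623) to 0.27 (without F1-622), with 0.051 without F3-609 and 0.25 without P3-612. With treatment as a term, the fitted log2 fold changes differed by -0.05 (Drd1 minus Drd2), 0.18 (Drd1 minus Adora2a) and 0.23 (Drd2 minus Adora2a), without a test. In digit 1 the 4 Drd1 to Adora2a ratios reached from 0.565 in P1-623 to 1.11 in F1-622 on the linear scale, a wider range than the shift between the digits.

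Within digit 3, the linear ratio of Drd1 to Adora2a was 1.13, 0.943 and 0.920 in F3-609, F3-612 and F3-908 and 0.589, 0.832 and 0.751 in P3-612, P3-904 and P3-907. The groups did not overlap, and the mean log2 ratio was -0.01 ± 0.16 in FTY720 and -0.48 ± 0.26 in placebo (SD, n = 3 and 3), a difference of 0.47. The exact permutation p was 0.1, the smallest that 20 splits allow, so this design cannot reach 0.05, and it was 0.6 after adjustment over the 6 ratio tests. Over all 10 mice the difference was 0.50 (two-sided exact permutation p = 0.0286 over 210 splits, before adjustment), with the digit left out of account and with F1-918, at 0.718, inside the range of the 4 placebo mice. The ratio of Drd1 to Drd2 was 0.838, 0.992 and 1.10 in the FTY720 mice of digit 3 and 0.880, 0.846 and 0.830 in the placebo mice, a log2 difference of 0.19 (exact permutation p = 0.3). That of Drd2 to Adora2a was 1.35, 0.950 and 0.834 against 0.668, 0.984 and 0.904, a log2 difference of 0.28 (exact permutation p = 0.5), and F3-609 held the highest value of the 10 mice. The Drd2 to Adora2a difference was 0.082 without F3-609, 0.118 without P3-612 and 0.43 without F3-908, and the Drd1 to Drd2 difference was 0.30 without F3-609 and 0.098 without F3-908. With GC and length trends taken out of each library, the FTY720 log2 fold change of Drd1 exceeded that of Adora2a by 0.18, compared with 0.47 with the trends left in, and that of Drd1 differed from that of Drd2 by -0.01, compared with 0.20. Between the digits, in the fits with treatment as a term, the differences of fitted fold changes moved from 0.18 to -0.18 for Drd1 minus Adora2a and from -0.05 to -0.35 for Drd1 minus Drd2. These differences have no test.

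**Figure D5:**
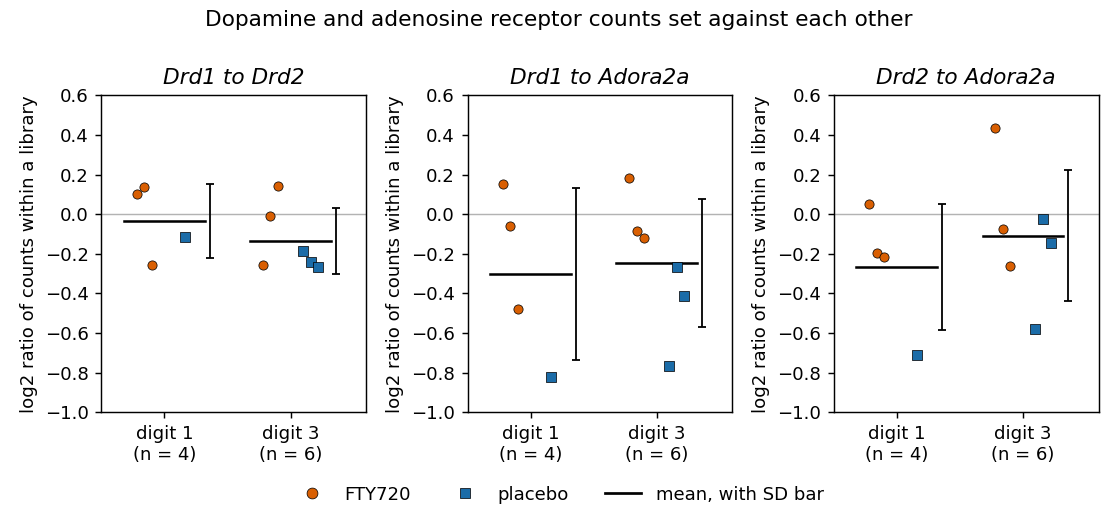
Log2 ratio of counts within a library (y axis) for Drd1 to Drd2, Drd1 to Adora2a and Drd2 to Adora2a in digit 1 (n = 4) and digit 3 (n = 6), with FTY720 as circles, placebo as squares, lines at the mean and bars of 1 SD. In the middle panel the 3 FTY720 mice of digit 3 lie at -0.12 to 0.18, above the 3 placebo mice at -0.76 to -0.26, while the means of the digits are -0.24 and -0.30.

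The members did not share a single pattern over the 10 mice. After the mean of each digit was subtracted from log2 CPM, the correlation with the mean of the 9 was highest for Adora2a (r = 0.91) and Rgs9 (r = 0.89), lower for Gpr6 (0.78), Drd2 (0.75), Ppp1r1b (0.72), Rasgrp2 (0.66) and Adcy5 (0.64), and lowest for Drd1 (0.31) and Pde10a (-0.02). Each member is part of that mean. The closest pair was Adora2a and Rgs9 (r = 0.94) and the most opposed was Pde10a and Ppp1r1b (r = -0.68). The genes most like the mean of the 9, of all genes tested, were Pla2g6 (r = 0.99, rho = 0.99), Slc2a6 (0.97 and 0.90), Smarcd3 (0.96 and 0.89), Zdhhc14 (0.95 and 0.94) and Grasp (0.95 and 0.90), none of them on the striatal lists, and the 10 most alike had 53.3% to 63.6% GC. The mean of the 9 itself correlated with the GC slope at r = 0.90 over the same libraries, which share their depth and base composition with every gene compared. Among the other striatal genes, Lrrc10b (r = 0.91) was most alike, and Cnr1 (-0.68) and Sfxn1 (-0.79) ran opposite.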

How the data were processed

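Brain RNA of 10 mice (6 FTY720, 4 placebo) was analysed from the gene counts and FPKM that the authors deposited. Per the labels, CASAVA 1.8, fastp, HISAT2 2.0.5 and featureCounts 1.5.0-p3 were used with GRCm38 and DESeq2 1.20.0 is listed, and the strand setting is not given in the sources used here. The deposited counts are whole and not normalized, and the deposited FPKM were scaled by the authors to gene length and library size and were used only for the order of levels and as an alternative. The members and lists were chosen with earlier results of these data known. Treatment groups came from the deposited treatment labels, and the digit and mouse number came from the mouse names. Each mouse was taken as 1 replicate, so that p-values cover the spread between these mice. Genes kept by filterByExpr were scaled by TMM and tested with edgeR 4.0.16 (R 4.3.3, quasi-likelihood, treatment and digit as terms in 10 mice, treatment alone in the 6 digit 3 mice), with Benjamini-Hochberg adjustment and a threshold of 0.05. SE was taken as the log2 fold change over the root of F. Log2 CPM used a prior count of 2 and ratios used counts plus 0.5, tested by exact permutation (scipy). Named genes were the 9 members, up to 4 genes with the smallest p of each list, any gene of the short lists (direct pathway, indirect pathway, relatives) and the 10 genes most like the mean of the 9. Strip2, Gnal, Th, Slc6a3 and Lrrc10b were chosen after their values were seen. Overlapping annotated genes held at most 42 counts per library. Alternatives were RLE or upper-quartile scaling, DESeq2 1.42.0, no low-count filter, other terms, limma 3.58.1 on log2(FPKM + 0.1), on log2(FPKM + 1) and with voom, each mouse left out, and GC and length trends removed (99.9% of genes tested had a GC value). The fits were tested on simulated data. Promoters came from RefSeq.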

Additional observations from a re-analysis of the deposited data

Results flagged for a closer look

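Drd1 was flagged among the 6 digit 3 libraries because F3-609, at 24.3 CPM, was farther below the nearest library, at 29.1 CPM, than Dixon's 95% limit allows. Drd1 was also flagged among the 4 placebo libraries because P1-623, at 34.1 CPM, stood apart above the nearest, at 29.7 CPM. P1-623 is the 1 placebo mouse of digit 1. In all, 2 flags came from 48 groups, and chance flags about 1 in 20 groups.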

How the results depend on the processing

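Between the digits, 4988 genes were called, against 3106 in FTY720 mice only and 2593 to 6077 with 1 mouse left out, lowest without P1-623 (2593) and F3-609 (2860). The 7 members called became 4 with no treatment term (9.88% of all genes lower), 5 in FTY720 mice only (9.19%), 8 with DESeq2 (15.3%) and 3 to 7 with 1 mouse left out, 4 without F1-918 (9.45% of all genes lower) and 3 without F3-609 (7.33%). Ppp1r1b and Rgs9 were called under each of the 21 alternatives, and no member changed direction. For FTY720 in digit 3, 1283 genes had an unadjusted p under 0.05, against 2340 with no filter, 765 with the leading digit of the mouse number as a term, 2269 in all 10 mice with the digit as a term, 461 with no digit term, and 388 to 3896 with 1 mouse left out (388 without F3-609, 399 without P3-907, 3896 without P3-904). With no filter 27 genes were higher and 107 lower after adjustment, and under the other alternatives except DESeq2 none was. The 1 member became 2 with no filter (4.57% of all genes lower) and with log2(FPKM + 0.1) or log2(FPKM + 1) (4.41% and 4.50%), 0 with the leading digit (2.80%) or with no digit term in 10 mice (1.57%), 3 in 10 mice with the digit (7.03%), and 0 to 3 with 1 mouse left out (0 without F3-609, P3-612 or P3-907, 2 without P3-904, 3 without F3-908), while the share of all genes that were lower was 1.31% to 2.84% in the first 3 of these, 12.2% without P3-904 and 6.52% without F3-908, against 4.49% with no mouse left out. Drd1 changed sign to 0.00034 with the leading digit, 0.053 and 0.160 in 10 mice with and without the digit, and lay at -0.093 to 0.076 with 1 mouse left out, highest without F3-609. Pde10a changed sign to 0.023 with the leading digit and lay at -0.25 to 0.23 with 1 mouse left out, at 0.099 without F3-908 and 0.23 without P3-904. The digit difference in the Drd1 to Adora2a ratio was -0.12 to 0.21 with 1 mouse left out, at -0.0013 without F1-918, -0.03 without F3-609 and -0.12 without P1-623. That ratio's FTY720 difference was 0.50 in all 10 mice. Where the construction does not show it, the cause was not tested. No paired analysis was possible because replicate numbers in accession order do not pair mice, and F3-612 and P3-612 alone share a mouse number. Groups of 3 limit the treatment comparison, and counting error is smallest for Adcy5 and largest for Gpr6.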
